A study of Homo sapiens with 8 samples.

Results

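The loci of 6 genes that link the tumour suppressor p53 to metabolism and autophagy were examined for p53 binding in U2OS, a human osteosarcoma cell line with wild-type p53. The genes were SESN1, SESN2, TIGAR (also C12orf5), DRAM1, FDXR and PANK1. The members were the peaks of 4 p53 ChIP-seq lists that overlapped a window of each gene with about 10 kb on either side, set in the genome build hg18, and they numbered 21 of 24535 peaks. The 4 lists came from 1 ChIP library each: cells with no treatment, cells in the solvent DMSO at 0.1%, cells in doxorubicin at 0.6 µg/ml, which breaks DNA through topoisomerase II, and cells in Nutlin-3 at 10 µM, which frees p53 from the ubiquitin ligase MDM2. A time of 24 h was listed for each, the antibody was the p53 antibody DO-1, and each condition also had 1 input library without a peak list here. The labels pair doxorubicin with no treatment and Nutlin-3 with DMSO. U2OS is a single tumour line, and no replicate existed, so no test between conditions was made and a listed or missing peak describes that library and its peak calling.

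p53 is a transcription factor that binds DNA as a tetramer, at sites made of paired half-sites, and stress raises its level by slowing its breakdown. Beside arrest and death genes it acts on genes of nutrient sensing, glucose use, mitochondrial electron transfer and autophagy. SESN1 and SESN2 encode sestrins, stress-induced proteins that hold back the growth kinase complex mTORC1 and limit oxidative damage. TIGAR encodes a phosphatase that slows glycolysis and favours the pentose phosphate pathway, and DRAM1 encodes a lysosomal membrane protein that promotes autophagy. FDXR encodes the mitochondrial reductase that passes electrons from NADPH to ferredoxin, and PANK1 encodes a pantothenate kinase at the rate-limiting step of coenzyme A synthesis.

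Each of the 6 loci held a p53 peak with DMSO and with Nutlin-3, and 3 of them, SESN1, TIGAR and PANK1, also held one with doxorubicin. No locus held a peak in untreated cells. There were 6 peaks with DMSO, 3 with doxorubicin and 12 with Nutlin-3, so 15 of the 24 pairs of a gene and a condition had a peak. DMSO gave exactly 1 peak at every gene. Nutlin-3 gave 3 peaks each at SESN1 and PANK1 and 2 each at TIGAR and FDXR, while SESN2 and DRAM1 had 1 each.

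**Figure D1:**
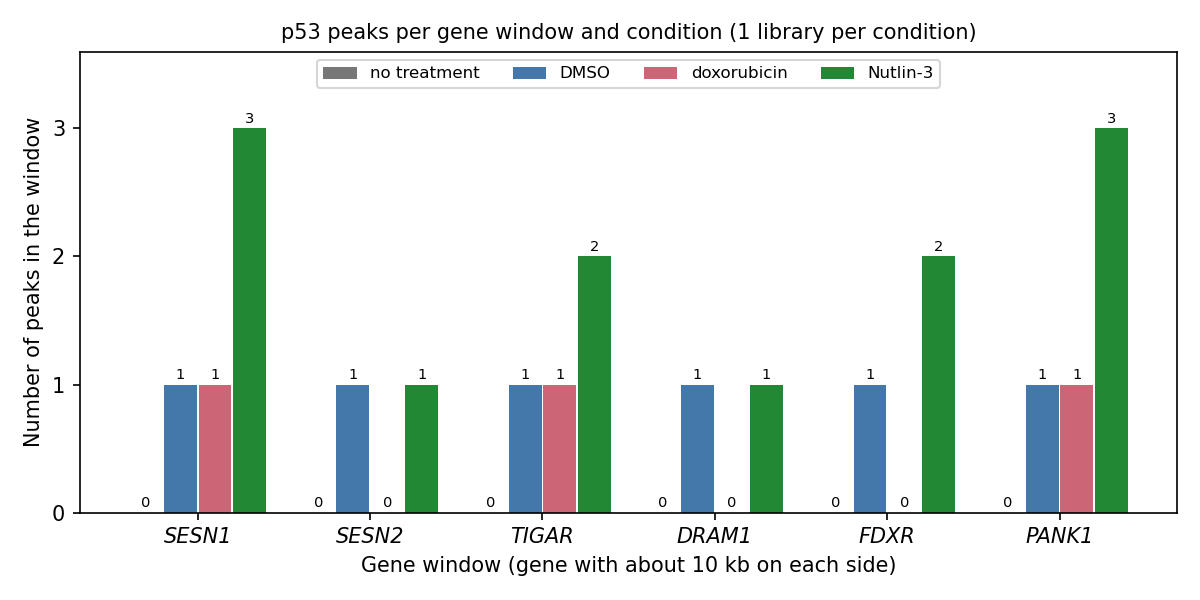
Number of p53 peaks (y axis) in the window of each gene (x axis), with 1 bar per condition and the count above it. Nutlin-3 has 1 to 3 peaks at every gene, DMSO has 1 at every gene, doxorubicin has 1 at SESN1, TIGAR and PANK1, and no treatment has 0 throughout.

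Most stretches of this length elsewhere in the genome held no peak. The windows ran from 31 kb (FDXR) to 129 kb (SESN1) and covered 415 kb in all. When the autosomes and chromosome X were tiled in steps of 69 kb, the mean window length, 5.43% of tiles held a DMSO peak, 5.56% a doxorubicin peak, 25.3% a Nutlin-3 peak and 0.741% a peak of untreated cells. Set beside this, the member windows holding a peak were 6 of 6, 3 of 6, 6 of 6 and 0 of 6 in the same order. For tiles as long as each gene's own window, the share with a DMSO peak ran from 2.52% (FDXR) to 9.67% (SESN1), and the share with a Nutlin-3 peak from 13.2% to 39.6%. Tiles include gene-poor and unmappable stretches, and the 6 genes were picked as p53 targets, so these shares are a description and no test. Peak density in the windows was 14.5 per Mb for DMSO, 7.23 for doxorubicin and 28.9 for Nutlin-3, and over the tiled chromosomes it was 0.926, 0.988 and 6.02 per Mb.

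The lists differ greatly in length, which limits what their counts at 6 loci can show. The windows held 0.215% of the 2793 DMSO peaks (95% exact binomial interval 0.0789 to 0.467), 0.0972% of the 3087 doxorubicin peaks (0.0200 to 0.284) and 0.0661% of the 18159 Nutlin-3 peaks (0.0342 to 0.115). The 3 intervals overlap each other, but such overlap is no test and does not show that the shares are equal. Of the 496 untreated peaks, 0 lay in the windows, which allows a share of up to 0.605%. That limit is above the shares of the other 3 lists, so a like share in untreated cells was not detectable in a list of this length. These intervals and the limit cover counting error only and treat peaks as independent. The read depth behind each list is unknown.

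The sequences just before the transcription starts were set beside the peaks, since most peaks lay close to the 5′ end of their gene. In all, 16 of the 21 peaks had their midpoint within 2 kb of the approximate 5′ end, and these were the 16 peaks outside SESN1. By this end, 13 of the 16 lay on the gene side and 3 before it, whereas the sequences searched lie before the start. The 5′ end was taken from the window bound less 10 kb and from the gene's strand, so it is known only to about a kilobase. For peaks nearer than that, the side, inside or outside the gene, is uncertain. The 250 bases before each start came from RefSeq on GRCh38.p14, all 6 genes matched, and they gave 10 such promoters because several genes have more than one start. Peaks are on hg18 and were not converted, so no peak is placed on these sequences. They show which promoters spell the p53 half-site consensus, which is 10 bases long: 3 purines, C, 2 bases that are A or T, G, and 3 pyrimidines. The consensus is its own reverse complement, so one search covers both strands, and overlapping matches were counted.

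The half-site, in capitals below, was found without mismatch in 3 of the 10 promoters, 1 each for SESN1, FDXR and PANK1, against 5.57% of all 35116 promoters in the table. The genes were picked as p53 targets and some have several of these promoters, so the promoter shares here are a description and no test. A single half-site is also not a full site, which is made of paired half-sites. The 3 promoters are shown because they carry such a match. For SESN1 it is an internal start on the minus strand at chr6:109008989-109009238, for FDXR the outer start on the minus strand at chr17:74872995-74873244, and for PANK1 the outer start on the minus strand at chr10:89645243-89645492.
SESN1: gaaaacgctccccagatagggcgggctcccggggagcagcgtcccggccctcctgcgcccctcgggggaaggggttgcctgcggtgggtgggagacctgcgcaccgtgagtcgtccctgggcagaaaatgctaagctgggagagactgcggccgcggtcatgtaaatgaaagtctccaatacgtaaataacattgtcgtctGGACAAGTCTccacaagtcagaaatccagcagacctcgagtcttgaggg
FDXR: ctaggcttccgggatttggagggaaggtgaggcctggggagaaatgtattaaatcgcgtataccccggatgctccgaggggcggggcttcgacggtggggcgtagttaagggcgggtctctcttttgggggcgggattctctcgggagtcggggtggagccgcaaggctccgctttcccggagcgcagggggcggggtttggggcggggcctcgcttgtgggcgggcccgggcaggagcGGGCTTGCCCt
PANK1: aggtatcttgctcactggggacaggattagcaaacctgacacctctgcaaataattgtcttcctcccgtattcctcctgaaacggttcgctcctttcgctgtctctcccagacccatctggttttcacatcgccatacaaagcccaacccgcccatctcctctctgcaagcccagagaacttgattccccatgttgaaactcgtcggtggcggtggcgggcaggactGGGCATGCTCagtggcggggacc
Counted from 1 at the 5′ end, the match began at base 202 in SESN1 (GGACAAGTCT), at base 240 in FDXR (GGGCTTGCCC) and at base 228 in PANK1 (GGGCATGCTC).

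The 3 genes with a match have several listed promoters each, and their remaining promoters held no half-site without mismatch. More sequence was thus searched for them, and the contrast between genes also follows the number of sequences searched. The promoters of the other 3 genes, each the only one in the table for its gene, held no half-site without mismatch and are shown for contrast. They lie on the plus strand, for SESN2 at chr1:28259268-28259517, for TIGAR at chr12:4320963-4321212 and for DRAM1 at chr12:101877330-101877579.
SESN2: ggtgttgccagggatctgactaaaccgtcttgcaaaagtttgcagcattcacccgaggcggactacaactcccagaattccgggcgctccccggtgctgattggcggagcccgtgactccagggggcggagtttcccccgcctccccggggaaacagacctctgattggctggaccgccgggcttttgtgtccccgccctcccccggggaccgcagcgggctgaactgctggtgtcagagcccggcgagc
TIGAR: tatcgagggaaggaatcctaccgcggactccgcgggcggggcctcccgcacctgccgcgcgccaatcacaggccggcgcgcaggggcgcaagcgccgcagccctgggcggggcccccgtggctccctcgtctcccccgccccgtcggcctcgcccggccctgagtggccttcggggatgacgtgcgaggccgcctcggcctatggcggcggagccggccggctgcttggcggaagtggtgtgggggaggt
DRAM1: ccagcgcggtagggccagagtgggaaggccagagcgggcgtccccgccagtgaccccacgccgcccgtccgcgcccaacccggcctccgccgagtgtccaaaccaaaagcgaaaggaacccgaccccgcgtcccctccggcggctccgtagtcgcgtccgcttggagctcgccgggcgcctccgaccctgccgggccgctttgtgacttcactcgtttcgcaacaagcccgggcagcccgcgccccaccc
With at most 1 mismatch allowed, 8 of the 10 member promoters held a half-site, against 57.5% of all promoters, and the SESN2 and TIGAR promoters were those without. These are matches of letters in a window of 250 bases and say nothing on sites outside it. The 3 genes with a half-site and the 3 with a doxorubicin peak were not the same: SESN1 and PANK1 had both, FDXR had the half-site alone and TIGAR the doxorubicin peak alone.

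The sestrin gene SESN1 had a site inside the gene that DMSO, doxorubicin and Nutlin-3 all listed. Its window spans chromosome 6 from 109404 to 109533 kb, on the minus strand. The DMSO peak ran from 109436891 to 109437031 (140 bp), the doxorubicin peak from 109436911 to 109436951 (40 bp) and the main Nutlin-3 peak from 109436851 to 109437011 (160 bp). The doxorubicin peak lay wholly within both others and shared its midpoint with the Nutlin-3 peak, 30 bp from the DMSO midpoint. This site stood 86.04 kb into the gene from its approximate 5′ end by the DMSO midpoint, so SESN1 was the member whose peaks were not near its outer 5′ end. RefSeq also lists internal starts of SESN1, among them the one printed above. On GRCh38 the promoter of that start runs from 109008989 to 109009238, another internal one from 109009553 to 109009802, and the outermost from 109094847 to 109095096. The spacing from the outermost to either internal one is close to the 86.04 kb above. The shared site may therefore lie near these internal starts, but the peaks were not converted to that build and this was not tested. Nutlin-3 had a further 40 bp peak from 109436631 to 109436671, separated by 180 bp, and a 60 bp peak from 109443231 to 109443291, separated by 6220 bp on the side of the 5′ end. Neither had a counterpart in the other lists.

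The related sestrin gene SESN2 had narrow peaks alone, as FDXR did. Its window spans chromosome 1 from 28448 to 28492 kb, on the plus strand. DMSO had a peak from 28459391 to 28459431 and Nutlin-3 one from 28459431 to 28459471, each 40 bp, the smallest width in any list. The end of the DMSO peak equals the start of the Nutlin-3 peak, so they adjoin without sharing a base if ends lie outside the peak. Their midpoints were 1.41 and 1.45 kb inside the gene from its approximate 5′ end. The nearest doxorubicin peak was 92.1 kb from the DMSO midpoint. SESN2 was also the gene with peaks just beyond its window: Nutlin-3 had a 100 bp peak 6.85 kb and a 180 bp peak 9.51 kb outside it. Both lay beyond the 5′ side, where RefSeq lists ATP5IF1 as the next coding gene.

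TIGAR, the brake on glycolysis, had the widest member peak, and its DMSO and Nutlin-3 peaks had the largest distance between nearest midpoints of the 6 genes, 130 bp. Its window spans chromosome 12 from 4290 to 4350 kb, on the plus strand, between CCND2 and FGF23. The doxorubicin peak, from 4300691 to 4300991, was 300 bp wide, and 6.15% of doxorubicin peaks were wider. The DMSO peak ran from 4300951 to 4301131 (180 bp) and shared 40 bp with it. Nutlin-3 had a 160 bp peak from 4300751 to 4300911, inside the doxorubicin peak with midpoints 10 bp apart, and a 40 bp peak from 4301151 to 4301191. The DMSO peak fell between the pair of Nutlin-3 peaks and overlapped neither, with gaps of 40 and 20 bp. The DMSO and main Nutlin-3 peaks at TIGAR therefore joined into 1 region of 440 bp only through the doxorubicin peak. By midpoint the 4 TIGAR peaks stood 0.83 to 1.17 kb inside the gene from its approximate 5′ end.

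DRAM1, the autophagy gene, had the closest match between DMSO and Nutlin-3. Its window spans chromosome 12 from 100785 to 100852 kb, on the plus strand. The DMSO peak ran from 100795251 to 100795451 and the Nutlin-3 peak from 100795271 to 100795431, so the second lay within the first and the midpoints were identical. At 200 bp the DMSO peak was among the wider of its list, with 5.33% of DMSO peaks wider, and the Nutlin-3 peak had 160 bp, with 10.4% wider. Both stood 0.35 kb inside the gene from its approximate 5′ end. Doxorubicin had no DRAM1 peak, and its nearest peak was 1.65 Mb from the DMSO midpoint.

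FDXR had narrow peaks near its approximate 5′ end, on sides that the error of about a kilobase leaves uncertain. Its window spans chromosome 17 from 70360 to 70391 kb, on the minus strand. DMSO had a peak from 70380651 to 70380691 and Nutlin-3 one from 70380631 to 70380671, which shared 20 bp and stood 0.33 and 0.35 kb inside the gene by midpoint. Nutlin-3 had another peak from 70381291 to 70381331, with a gap of 620 bp, which stood 0.31 kb outside on the side of FADS6, the next coding gene. All 3 FDXR peaks had the smallest width, 40 bp. The nearest doxorubicin peak was 0.828 Mb away from the DMSO midpoint.

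PANK1, the coenzyme A gene, had the most spread peaks near a 5′ end and the one doxorubicin peak found in no other list. Its window spans chromosome 10 from 91322 to 91406 kb, on the minus strand, and RefSeq places the microRNA gene MIR107 and the long non-coding RNA gene PANK1-AS1 over it. The DMSO peak, from 91395031 to 91395071 (40 bp), lay within a Nutlin-3 peak from 91394991 to 91395131 (140 bp), with midpoints 10 bp apart. Nutlin-3 had a wider peak, of 160 bp, from 91393991 to 91394151, and one of 60 bp from 91396131 to 91396191, with gaps of 840 and 1000 bp to the shared one. The doxorubicin peak, of 60 bp, ran from 91396891 to 91396951, and its midpoint was 1.87 kb from that of DMSO. By midpoint and the approximate 5′ end it stood 0.92 kb outside the gene, and the 3 Nutlin-3 peaks stood 1.93 and 0.94 kb inside and 0.16 kb outside. The side of the peaks less than about a kilobase away is uncertain. Doxorubicin and Nutlin-3 thus both listed PANK1 but shared no site there.

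**Figure D2:**
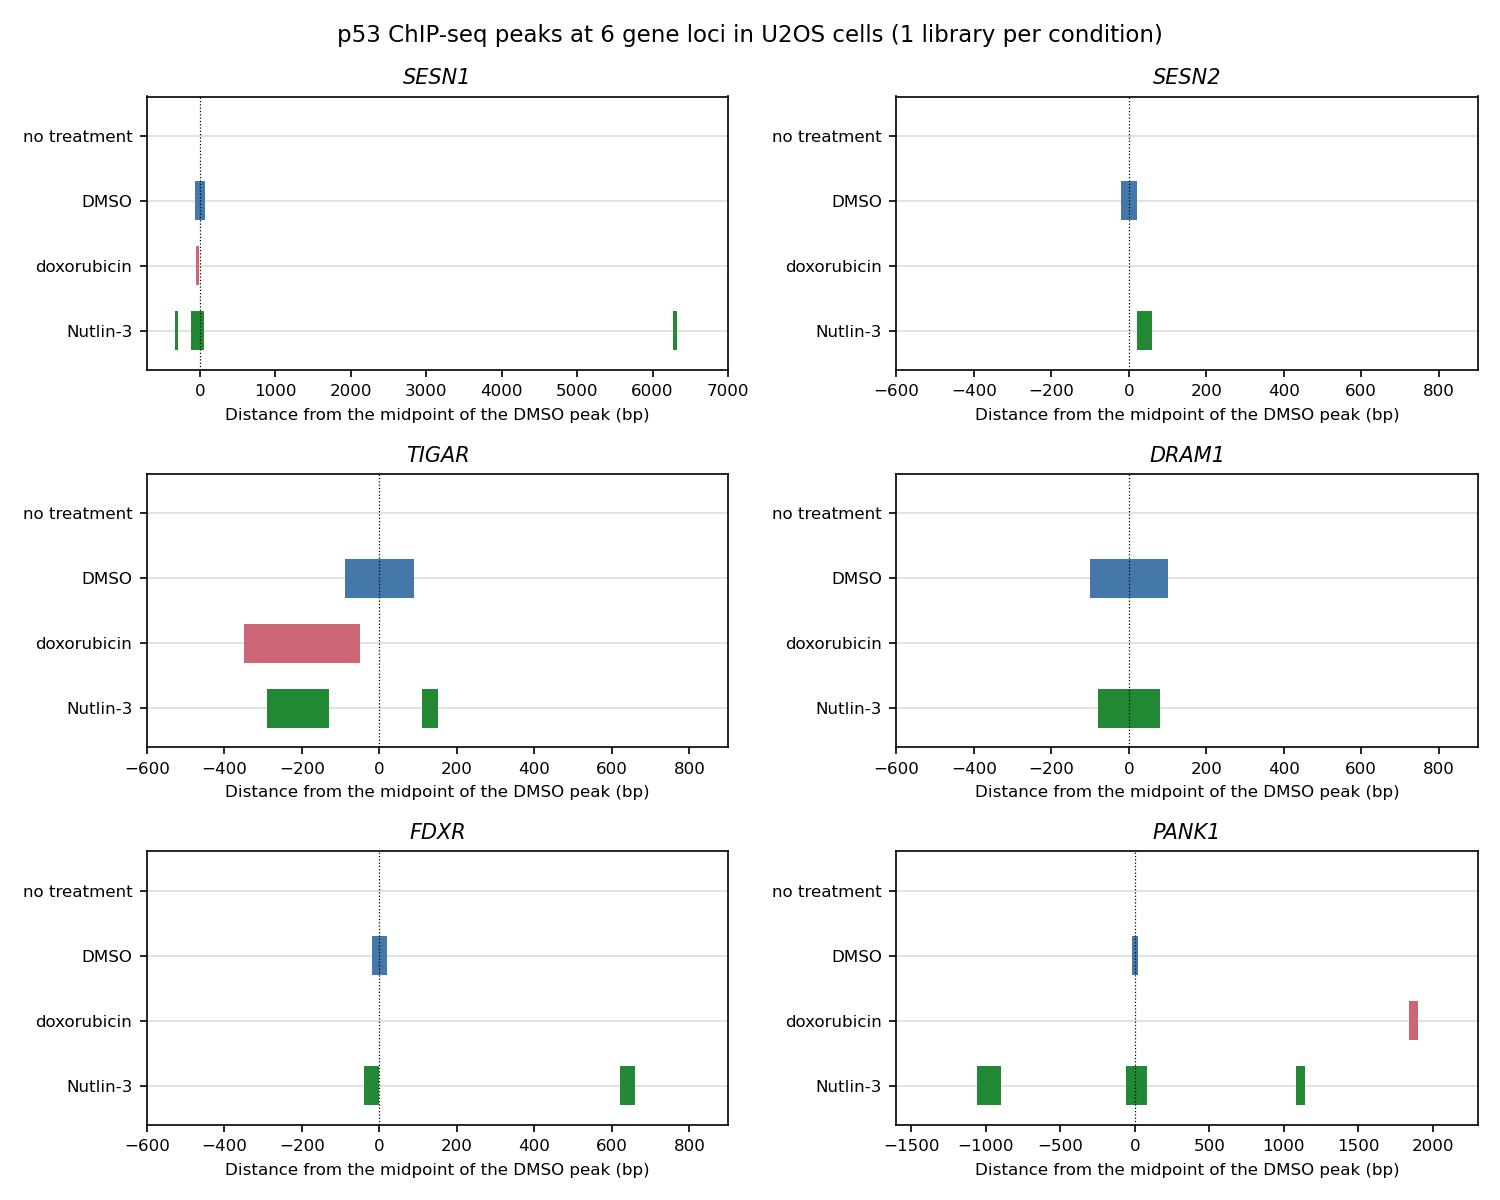
Peaks in each gene window, 1 panel per gene and 1 row per condition, drawn to scale by distance in bp from the midpoint of the DMSO peak (x axis, rising with the chromosome position, with a different range for SESN1 and PANK1). Peaks of DMSO and Nutlin-3 share their centre at DRAM1, adjoin at SESN2 and miss each other at TIGAR, and the doxorubicin peak at PANK1 stands 1.87 kb from the DMSO peak.

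Nutlin-3 had a peak sharing at least 1 bp with 4 of the 6 DMSO peaks (SESN1, DRAM1, FDXR and PANK1), against 70.4% of the whole DMSO list. Doxorubicin overlapped 2 of the 6 (SESN1 and TIGAR), against 45.0% of that list. Nutlin-3 overlapped 2 of the 3 doxorubicin peaks (SESN1 and TIGAR), against 63.5% of the whole doxorubicin list. With so few peaks, no count here stands apart from its background.

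Joining overlapping and adjoining peaks of all lists gave 13 regions in the 6 windows. Of these, 2 were held by DMSO, doxorubicin and Nutlin-3 (SESN1 and TIGAR), a class with 7.04% of all 19877 regions. A further 4 were held by DMSO and Nutlin-3 alone (SESN2, DRAM1, FDXR and PANK1), a class with 3.90% of all regions. Nutlin-3 alone held 6, at SESN1, TIGAR, FDXR and PANK1, a class with 76.0% of all regions, and doxorubicin alone held 1, at PANK1, a class with 3.52%. No region in the windows was held by doxorubicin and Nutlin-3 alone, a class with 3.99% of all regions. None was held by DMSO alone, a class with 2.93%. Among 13 regions, a count of 0 for classes this small does not set these loci apart. With adjoining peaks kept apart there were 14 regions, 7 of them of Nutlin-3 alone, and the SESN2 peak of DMSO stood alone. With overlapping and adjoining peaks joined, every member gene had 1 region listed with both DMSO and Nutlin-3. At SESN2 these peaks only adjoin, and at TIGAR they join only through the doxorubicin peak, with no base shared in either case. The Nutlin-3 peaks next to another of its peaks were 180 to 1000 bp away, apart from the SESN1 peak at 6220 bp.

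Peak width did not follow the condition in one direction at these genes. The list files hold no height, so width is the one measure of a peak. From DMSO to the Nutlin-3 peak in the same region, width was 140 and 160 bp at SESN1, 180 and 160 bp at TIGAR, 200 and 160 bp at DRAM1, and 40 and 140 bp at PANK1. It was 40 bp in both at SESN2 and FDXR. The widths were thus higher with Nutlin-3 at SESN1 and PANK1 and lower at TIGAR and DRAM1, and with steps of 20 bp and no replicate only PANK1 differed by more than 2 steps. The median width was 90 bp for the 6 DMSO peaks and 60 bp for the 12 Nutlin-3 peaks, and 60 bp in each whole list. Peaks of 40 bp made up 3 of 6 member peaks with DMSO, 1 of 3 with doxorubicin and 5 of 12 with Nutlin-3, beside 47.5%, 43.5% and 34.6% of those lists.

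**Figure D3:**
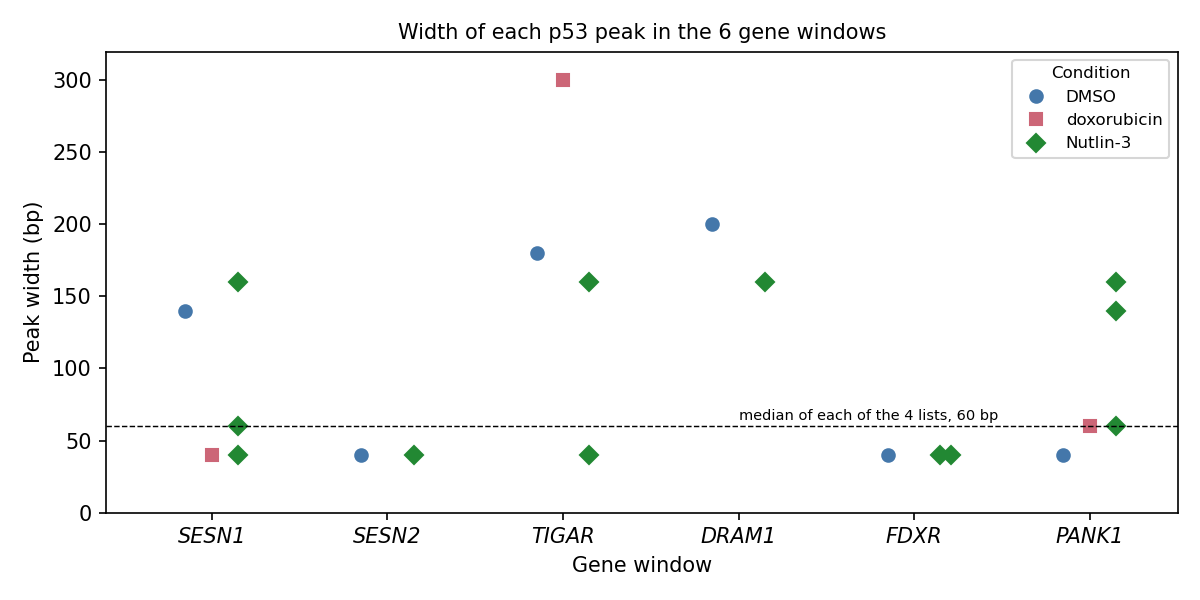
Width in bp (y axis) of each of the 21 peaks by gene (x axis), with symbols for the condition, offset sideways so that equal values can be seen. The dashed line is the median width of 60 bp in each list. The widest peak is the doxorubicin peak at TIGAR with 300 bp, and SESN2 and FDXR hold peaks of 40 bp alone.

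Untreated cells had no peak near any of the genes. Their nearest peak was 1.06 Mb (TIGAR) to 47.5 Mb (SESN1) from the DMSO midpoint on the same chromosome. The untreated list was sparse, with 0.152 peaks per Mb over the tiled chromosomes, and the doxorubicin list had 0.988. The distances to the nearest peak of either list were not set against those of other genes. Against the untreated control, doxorubicin had 1 peak more at SESN1, TIGAR and PANK1 and equal counts at the other genes. Against DMSO, Nutlin-3 had 2 more at SESN1 and PANK1, 1 more at TIGAR and FDXR, and equal counts at SESN2 and DRAM1.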

How the data were processed

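The study deposited p53 ChIP-seq peak lists for 4 of 8 libraries of U2OS cells. Each deposited list has 3 columns (chromosome, start, end); per the submitters' processing notes the build is hg18, and CASAVA and Bowtie 0.12.2 were used, while the sources used here name no peak caller or threshold. All 24535 peaks lie on a grid, with widths in steps of 20 bp. Positions are printed as deposited, and whether starts count from 0 or 1 is not stated. The member windows were given as hg18 bounds in kb, and no hg18 genome or annotation was used here. Overlaps, regions and tiles were computed in Python 3.11.15, intervals with scipy 1.17.1 and plots with matplotlib 3.10.9, and the code was tested on simulated data. A peak belonged to a window, or was overlapped, by at least 1 bp. Genome tiles ran from the first base to the last peak of each chromosome, without M and Y. All 6 genes, every region in 2 or more lists and the widest peak per gene and list were to be named, and all 21 peaks are. The members were chosen with earlier results of these data known, and the promoters to print after their matches were seen. A further list of metabolism genes could not be placed on hg18. Alternatives changed the window bounds, the smallest width, the assignment by midpoint and the merging of peaks. The inputs have no list and were not analysed here.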

Additional observations from a re-analysis of the deposited data

How the results depend on the processing

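Narrow peaks carried many of the counts. Keeping peaks of at least 60 bp left 3 of 6 DMSO peaks, 2 of 3 doxorubicin peaks, 7 of 12 Nutlin-3 peaks, 8 of 13 regions, 9 of 15 pairs of a gene and a condition with a peak, 1 region held by doxorubicin and Nutlin-3 (the same 1 also with DMSO, TIGAR), and no peak at SESN2 or FDXR. With at least 80 bp these were 3, 1, 5, 5, 8, 1 and 1, and regions of Nutlin-3 alone fell from 6 to 2. These falls follow from leaving peaks out. Of 62 alternatives for the main counts, 48 stayed within 1.5 times. They comprise 4 with a smallest width (no treatment with both, doxorubicin and regions of Nutlin-3 alone with 60 bp) and every one that used the gene span without its flanks, windows 10 kb wider on each side, midpoints, merging within 500 bp, adjoining peaks kept apart, or, chosen after the data were seen, left out the untreated list. In single genes, the span without flanks lost the doxorubicin peak at PANK1 and 1 Nutlin-3 peak each at FDXR and PANK1, wider windows added 2 Nutlin-3 peaks at SESN2, and merging within 500 bp joined a pair of Nutlin-3 peaks each at TIGAR and SESN1. Of 144 alternatives for single genes and conditions, 124 stayed within 1.5 times. No paired analysis was possible because the result comes from no test and each condition has 1 library, and no replicate could be left out.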
